A study of Mus musculus with 22 samples.

Results

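Oxidative phosphorylation, the last stage of respiration, was followed at the mRNA level through the subunit genes of its 5 enzyme complexes. A script selected them by symbol: the 13 genes of the mitochondrial genome that encode subunits (ND1 to ND6 with ND4L, CYTB, COX1 to COX3, ATP6 and ATP8), and nuclear genes whose symbols start with Nduf and a letter a, b, c, s or v, with Uqcr, with Cox4 to Cox8 or with Atp5, or are Sdha to Sdhd. This gave 97 of the 24475 genes in the table, 13 mitochondrial and 84 nuclear. By symbol the nuclear genes fell to complex I (37), complex II (4), complex III (8), complex IV (18) and complex V (17). Membership rests on names alone: Ndufa4 is counted under complex I although its protein is now known as part of complex IV, and Atp5s, Atp5sl and Cox7a2l carry family names without being core subunits. All 97 identifiers matched RefSeq genes on GRCm38.p6.

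Polyadenylated RNA of mouse liver was sequenced in 22 libraries. Mice were wild type (WT) or Gcg-/-, without the gene that encodes glucagon, the pancreatic hormone that raises hepatic glucose output and amino acid breakdown. Each genotype had an uninfused group (3 libraries), a group infused with glucagon at 30 µg/d (4 libraries) and a group infused at 150 µg/d (4 libraries). Libraries are named here by their running number: 1 to 3 uninfused WT, 4 to 6 uninfused Gcg-/-, 7 to 10 WT at 30, 11 to 14 Gcg-/- at 30, 15 to 18 WT at 150 and 19 to 22 Gcg-/- at 150 µg/d. The uninfused groups received no vehicle that the labels name. The sources used here do not give strain, sex, age, route or length of infusion. Nothing in the labels ties the libraries to separate mice; a p-value below therefore reflects the scatter of these libraries, which may be partly technical. Whole liver was used, and in such bulk tissue fewer cells of a type cannot be told apart from less RNA per cell.

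Complex I (NADH dehydrogenase), complex III (cytochrome bc1) and complex IV (cytochrome c oxidase) pump protons across the inner mitochondrial membrane as electrons pass to oxygen, complex II (succinate dehydrogenase) feeds in electrons without pumping, and complex V (ATP synthase) uses the gradient to make ATP. Complexes I, III, IV and V each mix subunits from both genomes, whereas complex II is encoded in the nucleus alone. The mitochondrial genes are transcribed from both strands as long precursors inside the organelle and cut apart mostly at tRNAs. Their mRNA levels therefore also depend on processing and decay, whereas each nuclear gene has its own promoter. In liver this machinery supplies the ATP and the reoxidised cofactors that gluconeogenesis, urea synthesis and fatty acid oxidation need.

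The mitochondrial genes lie so close that some share bases, which limits what a read can be assigned to. The 3 places shown are the longest overlaps between annotated transcripts of neighbouring genes (GENCODE vM21, GRCm38, plus strand); ATP6 and COX3 also share 1 base, which is not shown. Capitals mark the shared bases and lower case the flanks.
ATP8/ATP6, chrMT:7915-7981: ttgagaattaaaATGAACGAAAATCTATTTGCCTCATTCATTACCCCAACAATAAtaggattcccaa
ND4L/ND4, chrMT:10155-10185: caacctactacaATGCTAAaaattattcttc
ND5/ND6, chrMT:13540-13565: tcttatactcaaTTAATCTCGAGTAA
The 204 bases of ATP8 share 43 bases with ATP6, whose start codon ATG opens the capitals. ND4L shares 7 bases with ND4, and ND5 shares 14 bases with ND6, the single subunit gene on the other strand. The libraries were made strand-specific, but the sources used here do not say whether counting used strand, and values of ATP8, ND4L and ND6 are therefore the least certain of the 13.

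Nuclear members start from promoters in which a few factor motifs recur. RefSeq windows from 250 bases before to 50 after the start site (GRCm38.p6) were found for 65 of the 77 nuclear members with a mean of at least 0.5 RPKM, 71 windows in all. The NRF1 motif GCGCANGCG, read on both strands, was in 28.2% of these windows and in 6.25% of all 32851 windows of the same length. The ETS motif CCGGAAG was in 22.5% against 8.86%, and the YY1 motif AAGATGG in 18.3% against 6.34%. Other promoter letters were less far apart: GGGCGG (SP1) 38.0% against 35.7%, CCAAT 42.3% against 37.4% and TATAAA 8.45% against 13.6%. None of these motifs contains another, and the NRF1 letters often read on both strands at the same bases. A match describes the letters and not a bound site. The sites below are from members described in the results, each on the strand of its gene, with the motif in capitals; a motif on the other strand appears as its reverse complement.
Ndufb7 (ETS, chr8:83566727-83566756, plus strand): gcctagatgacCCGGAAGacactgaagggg
Uqcr11 (ETS, chr10:80406869-80406898, minus strand): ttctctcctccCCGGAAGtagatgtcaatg
Uqcr11 (NRF1, chr10:80406807-80406836, minus strand): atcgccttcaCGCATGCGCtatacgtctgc
Atp5e (ETS, chr2:174464185-174464214, minus strand): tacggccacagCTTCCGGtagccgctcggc
Ndufa11 (NRF1, chr17:56717692-56717721, plus strand): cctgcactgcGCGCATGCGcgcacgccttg
Cox7c (YY1, chr13:86046779-86046808, minus strand): tgttgtaactcCCATCTTccctttcggtct

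Levels are given in the deposited unit, RPKM (reads per kilobase of transcript per 1e6 reads), so those of different genes can be compared per length but each library is scaled to a fixed depth. Estimated depth was 11.2 to 17.7 M reads, with a median of 13.8 M. Defining hepatocyte genes such as Alb were high in every library. Their sum over 9 genes was 56607 to 83946 RPKM in uninfused Gcg-/- against 51683 to 57196 RPKM in uninfused WT, which overlapped. Of these 9 genes 4 were above 0 and 5 below, and none passed. Library 21 (Gcg-/- at 150 µg/d) carried striated muscle transcripts, with a summed level of 117.3 RPKM over 10 markers against at most 3.96 in any other library. Endothelial markers were higher in uninfused Gcg-/- than in uninfused WT (5 of 10 passed the test, all 10 above 0; summed 123.3 to 131.5 against 93.1 to 103.0 RPKM), and Kupffer cell markers lay in the same direction (10 of 10 above 0, none passed; 306.1 to 317.5 against 194.5 to 267.4 RPKM). Stellate cell and fibroblast markers also separated these groups (9 of 10 above 0, none passed; 126.2 to 129.6 against 91.8 to 103.7 RPKM), as did the summed cholangiocyte markers (60.3 to 177.2 against 16.4 to 32.8 RPKM), nearly all of it Spp1, and the summed lymphocyte markers (6.49 to 10.3 against 4.88 to 6.08 RPKM). The summed brown adipocyte markers were lower, at 5.16 to 21.8 against 58.1 to 102.6 RPKM, but this was nearly all Elovl3, while Ucp1, which defines that cell type, was at 0 or near it in every library.

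Transcripts of the 13 mitochondrial genes made up 9.92 to 18.2% of all RPKM in a library, and those of the 84 nuclear genes 1.58 to 2.13%. The mitochondrial sum ran from 56068 RPKM in library 17 to 106509 RPKM in library 2, a 1.90-fold range. The nuclear sum ran from 9097 RPKM in library 5 to 12264 RPKM in library 16, a 1.35-fold range. Both extremes of the mitochondrial sum were WT libraries, and library 16, with the highest nuclear sum, belongs to the same group as library 17. By reads rather than RPKM, the mitochondrial genes took 5.68 to 10.2% of a library.

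**Figure D1:**
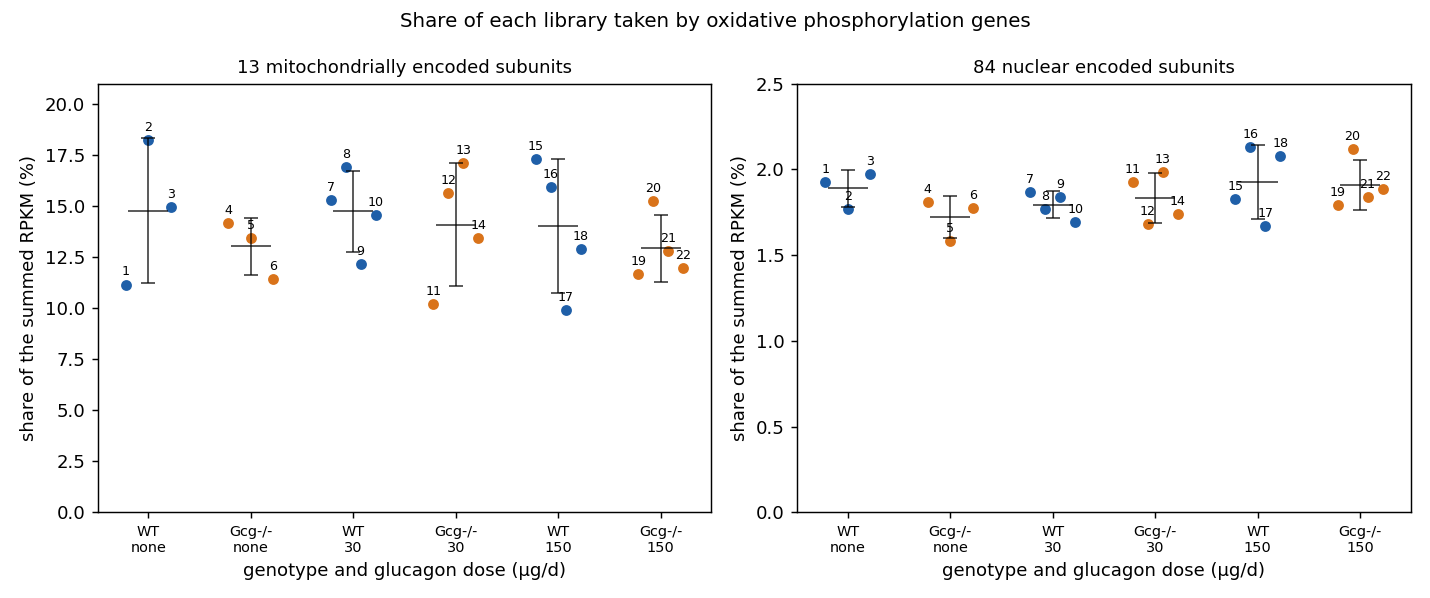
Share of the summed RPKM (y axis, %) taken by mitochondrial (left) and nuclear (right) subunit genes in each library, by genotype and glucagon dose (x axis); points are libraries with their numbers, bars the group mean and SD. The mitochondrial share spans 9.92 to 18.2% with overlap between all groups, and the nuclear share 1.58 to 2.13%.

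The groups overlapped in both sums. The mitochondrial sum averaged 86324 ± 20559 RPKM (SD, n = 3) in uninfused WT and 74672 ± 6478 (SD, n = 3) in uninfused Gcg-/- liver. With glucagon at 30 µg/d it was 85534 ± 11745 in WT and 82854 ± 17194 in Gcg-/- (SD, n = 4 each), and at 150 µg/d it was 80006 ± 18631 and 73524 ± 9115 (SD, n = 4 each). The largest gap between group means was smaller than the spread inside uninfused WT, whose 3 libraries lay at 65411, 106509 and 87053 RPKM. For the nuclear sum, uninfused Gcg-/- had the lowest group mean, 9890 ± 706 RPKM (SD, n = 3), against 11037 ± 627 (SD, n = 3) in uninfused WT. The other groups averaged 10398 ± 308 (WT at 30), 10782 ± 686 (Gcg-/- at 30), 11003 ± 1364 (WT at 150) and 10866 ± 857 RPKM (Gcg-/- at 150; SD, n = 4 each).

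The 2 origins did not follow each other from library to library. Both sums lay on the same side of their group mean in 10 of 22 libraries. Against the median of all libraries, 5 were above in both sums, 5 below in both, 6 above in the mitochondrial sum alone and 6 above in the nuclear sum alone. Library 5 had the lowest value of all 22 for 36 of 77 nuclear genes and for none of the 13 mitochondrial genes. Library 2 had the highest value for 6 mitochondrial genes and for no nuclear gene. Library 17 was low in both, with the lowest value for 9 mitochondrial and 19 nuclear genes. In the same group, libraries 16 and 18 held the highest value for 19 and 18 nuclear genes and for no mitochondrial gene.

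**Figure D2:**
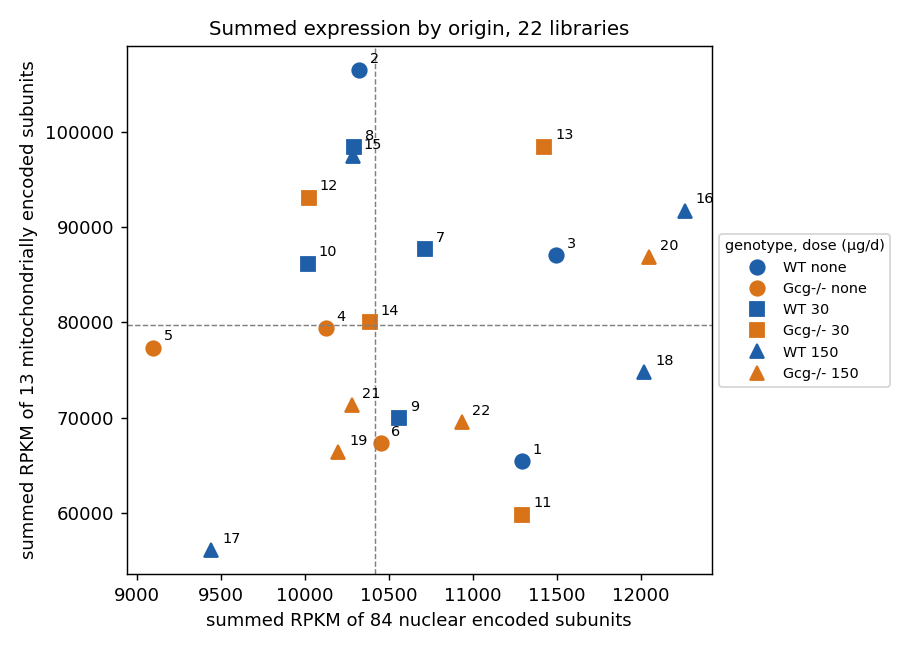
Summed RPKM of the 13 mitochondrial genes (y axis) against that of the 84 nuclear genes (x axis) in 22 libraries; colour gives genotype, symbol the dose and dashed lines the medians. Libraries spread over all quadrants, with 5 above both medians and 5 below both.

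The ratio of the sums, in which library scaling cancels, ranged from 5.30 to 10.3. On the log2 scale it averaged 2.94 ± 0.42 in uninfused WT, 2.92 ± 0.21 in uninfused Gcg-/- (SD, n = 3 each), 3.03 ± 0.22 in WT at 30, 2.92 ± 0.36 in Gcg-/- at 30, 2.84 ± 0.31 in WT at 150 and 2.75 ± 0.08 in Gcg-/- at 150 µg/d (SD, n = 4 each). The group means spanned 0.28, the same as the pooled SD within groups (0.28). Within groups the mitochondrial sum varied more than the nuclear sum, with SDs of 0.27 and 0.11 in log2.

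Single genes showed the same contrast between origins. The within-group SD of log2 level had a median of 0.28 over the 13 mitochondrial genes (0.20 for CYTB to 0.70 for ATP8) and 0.15 over the 77 nuclear genes (0.07 to 0.71). Over the 1161 genes of any kind with a mean of at least 50 RPKM the median was 0.17. The median for the mitochondrial genes was above that of other abundant genes, and the median for the nuclear subunit genes just below it; these are descriptions without a test.

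COX1, the catalytic subunit of cytochrome c oxidase, was the most abundant member with a mean of 14295 RPKM, and ATP6, the proton channel subunit of ATP synthase, ranged from 8278 to 20323 RPKM. ND6 was lowest of the 13 with a mean of 215.9 RPKM, against a median of 5438 RPKM. These are levels in poly(A)-selected RNA, and whether capture differed between mitochondrial mRNAs or libraries was not tested. RPKM differed between neighbouring genes: ATP6 exceeded ATP8 by 2.87-fold to 9.70-fold and ND4 exceeded ND4L by 1.36-fold to 1.66-fold. Both pairs overlap on one strand, so their ratios need not compare separate mRNAs, and the part of read assignment in them was not tested. ND5 exceeded ND6, which lies on the other strand, by 7.28-fold to 24.2-fold. ND4 and ND4L therefore kept a nearly fixed proportion and the other pairs did not. ND6 rested on an estimated 575 to 3705 reads per library, a counting error of 1.64 to 4.17%, beside a coefficient of variation over libraries of 42.2%.

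ATP8, a short accessory subunit of ATP synthase, was highest in library 15 and next highest in library 2. It stood at 1379, 4183 and 1903 RPKM in uninfused WT and at 2444, 1895 and 1133 RPKM in uninfused Gcg-/- liver. With glucagon at 30 µg/d it was 2975, 2400, 1229 and 1505 RPKM in WT and 1142, 2717, 2656 and 1878 RPKM in Gcg-/-. With 150 µg/d it was 5875, 2251, 1129 and 1428 RPKM in WT and 1288, 2248, 2172 and 1518 RPKM in Gcg-/-. All 6 groups overlapped, and the high value of library 15 had no counterpart in its 3 group mates. In that library ATP6 was 2.87 times ATP8, the lowest of 22 ratios.

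ND1, a core membrane subunit of complex I, was highest in library 4, at 7173 RPKM. The other uninfused Gcg-/- libraries had 4496 and 4140 RPKM, uninfused WT had 3398, 5447 and 4237 RPKM, and the 16 infused libraries ranged from 3437 to 5922 RPKM. Library 4 also had the lowest CYTB of all libraries, 5809 RPKM, so the 13 genes did not shift together in it. Beside its genomic neighbour ND2, ND1 stood at 1.51, 1.02 and 0.945 times the ND2 level in uninfused Gcg-/- and at 0.732, 0.762 and 0.718 times in uninfused WT. These groups did not overlap. The ratio lay between 0.714 and 0.982 in the infused libraries, so that library 6 fell within their range and libraries 4 and 5 above it. This pair was singled out after its values were seen and was given no test.

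**Figure D3:**
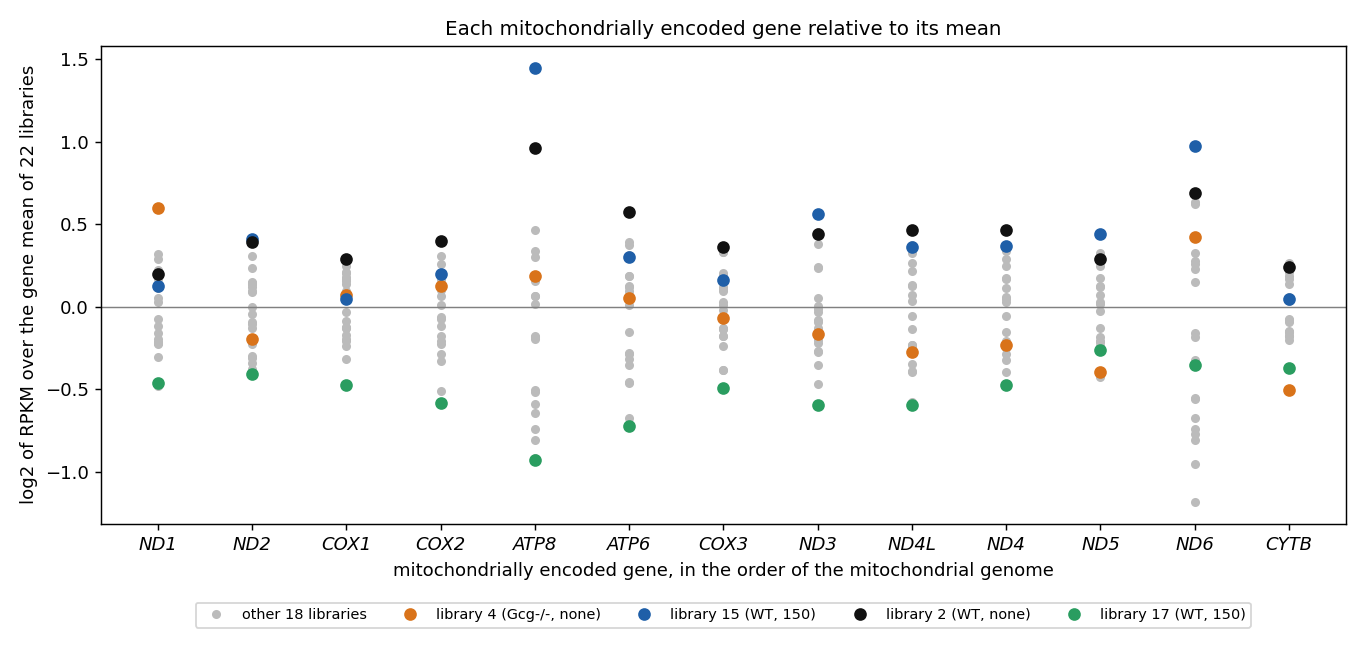
Level of each mitochondrially encoded gene in 22 libraries as log2 of RPKM over the mean of that gene (y axis), in genome order (x axis); 4 libraries are coloured and the other 18 grey. Library 2 lies above and library 17 below the mean at every gene, library 15 stands out at ATP8 and ND6, and library 4 is highest at ND1 and lowest at CYTB.

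Atp5b, the catalytic beta subunit of ATP synthase, was the most abundant nuclear member with a mean of 519.1 RPKM (397.1 to 634.7), and Ndufa4 led complex I with a median of 448.0 RPKM. In complex IV, Cox4i1 and Cox6a1 had medians of 312.2 and 268.7 RPKM, whereas the alternative isoforms Cox4i2 and Cox6a2 reached at most 0.296 and 2.77 RPKM. Cox7c, another complex IV subunit, had a median of 324.5 RPKM (261.9 to 397.7). Cox7a2 had a median of 146.8 RPKM and its muscle isoform Cox7a1 one of 1.08 RPKM. Of the 84 nuclear genes, 77 had a mean of at least 0.5 RPKM and were tested. The 7 others were Cox4i2, Cox6a2, Cox6b2, Cox7b2, Cox8b, Cox8c and Ndufs5, and Cox7b2 was listed at 0 in every library.

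The muscle isoforms peaked in library 21. There Cox6a2 reached 2.77 RPKM, Cox8b 2.05 RPKM and Cox7a1 4.99 RPKM, each the highest of 22 libraries. The muscle markers Acta1 and Tnnt3 stood at 35.2 and 24.3 RPKM in the same library. The part of muscle RNA in these values was not tested.

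Without infusion, 1 of 90 tested members was lower in Gcg-/- than in WT liver and none was higher (limma on log2(RPKM + 1), Benjamini-Hochberg adjusted p under 0.05 over 11590 genes). Of all genes tested, 1.54% passed in this comparison, so a single member is no more than that share. The member was Ndufb7, an accessory subunit of complex I on its intermembrane space side (gene at chr8:83566758-83571623). Ndufb7 stood at 80.2, 74.8 and 81.1 RPKM in uninfused WT and at 59.5, 50.5 and 58.7 RPKM in uninfused Gcg-/- liver. All 3 Gcg-/- libraries lay below all 3 WT libraries. Ndufb7 fell by 0.48 in log2 (SE 0.11, limma adjusted p = 0.037). The call was lost without library 1, 2, 3, 4 or 5 (adjusted p 0.0883 to 0.154), and it was also lost when only these 2 groups were fitted (limma adjusted p = 0.0752).

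Ndufc2, another accessory subunit of the complex I membrane arm (gene at chr7:97400003-97407800), came next. It had 84.6, 85.0 and 96.0 RPKM in uninfused WT and 44.5, 67.1 and 64.3 RPKM in uninfused Gcg-/-, again without overlap. Its log2 difference of -0.61 (SE 0.16) did not pass (limma adjusted p = 0.0557). Cox5b, a nuclear subunit of complex IV, had 221.4, 162.3 and 230.8 RPKM against 151.5, 127.3 and 160.8 RPKM (limma adjusted p = 0.121). Uqcr11, a small subunit of complex III, had 232.6, 186.6 and 206.0 RPKM against 170.2, 141.3 and 170.6 RPKM (limma adjusted p = 0.137). In complex II, Sdha averaged 162.8 ± 8.61 and 145.5 ± 5.33 RPKM (SD, n = 3 each), with an adjusted p of 0.583 by limma. Atp5l, a subunit of the membrane part of ATP synthase, averaged 268.0 ± 12.04 and 224.9 ± 22.1 RPKM (SD, n = 3 each; limma adjusted p = 0.235).

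Small differences in one direction ran through most of the nuclear members. Such counts, here and below, are over genes measured in the same few libraries. Genes of one origin often moved together in a library, as in library 5, lowest for 36 of 77 nuclear genes. Their number is therefore not a number of independent results. Of 77 fitted differences, 71 were below 0, with a median of -0.16 in log2, whereas over all genes 47.9% were below 0 and the median was 0.01. By complex the counts below 0 were 34 of 36 (complex I), 3 of 4 (II), 8 of 8 (III), 11 of 12 (IV) and 15 of 17 (V). In 17 of 77 nuclear genes all Gcg-/- libraries lay below all WT libraries, where 11.6% of all genes did so. These genes included Ndufb7, Ndufc2, Ndufa2, Cox4i1, Cox5b, Cox7a2, Atp5l and Atp5d. The shift was smaller without library 5, where 62 of 77 were below 0 and the median was -0.07. Library 5 also had the highest summed erythroid marker level, 2451 RPKM against at most 1229 RPKM in any other library, and the part of this in its low values was not tested.

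Of the 13 mitochondrial genes, 12 were below 0, with a median of -0.33, and none passed. Only ND1 lay above 0 (0.26, SE 0.24, limma adjusted p = 0.633), a value that moves with library 4. CYTB, the core subunit of complex III, averaged 8961 ± 1076 RPKM in uninfused WT and 6985 ± 1051 RPKM in uninfused Gcg-/- (SD, n = 3 each; limma adjusted p = 0.291). The direction for the mitochondrial genes rested on library 2: without it 7 of 13 were below 0 and the median was -0.07, and without library 6 the median was -0.15 with 12 of 13 below 0. The endothelial, Kupffer, stellate and cholangiocyte marker sums given above were higher and the brown adipocyte sum lower in the same uninfused Gcg-/- libraries. Of 8 periportal hepatocyte markers 7 were below 0, and 2 (Gls2 and Sds) were called lower. Of 8 pericentral markers 4 were below 0 and 4 above, with 1 called lower. The part of these markers in these differences was not tested.

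**Figure D4:**
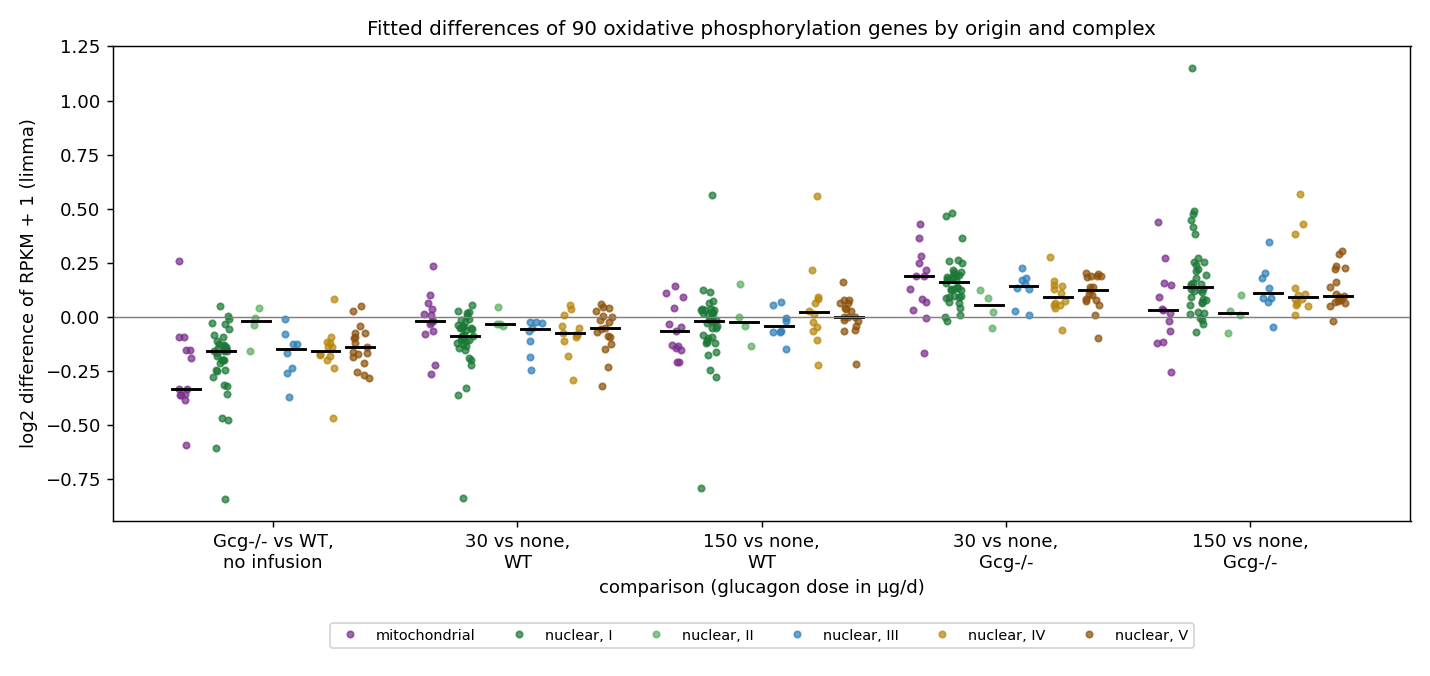
Fitted log2 differences (y axis, limma on RPKM + 1) of 13 mitochondrial and 77 nuclear genes in 5 comparisons (x axis), coloured by origin and complex; each point is a gene and black bars are medians. Most nuclear genes lie below 0 for Gcg-/- against WT without infusion (71 of 77) and above 0 for both doses against no infusion in Gcg-/- (72 and 70 of 77), comparisons that all use the uninfused Gcg-/- libraries.

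In WT liver neither dose of glucagon gave a called member. At 30 µg/d against no infusion limma called 0% of all genes at the adjusted threshold (657 of 11590 genes and 4 of 90 members had an unadjusted p under 0.05). Nuclear members had a median log2 difference of -0.06, with 62 of 77 below 0, and the mitochondrial median was -0.02, with 7 of 13 below 0. The mitochondrial direction turned with single libraries, from 1 of 13 above 0 without library 1 (median -0.17) to 12 of 13 without library 2 (median 0.18). The nuclear median was -0.12 without library 2 and -0.04 without library 3. Atp5e, the epsilon subunit of ATP synthase, was at 140.7, 145.7, 149.3 and 185.4 RPKM with 30 µg/d against 207.1, 172.5 and 201.0 RPKM without, groups that overlapped through library 10 (limma adjusted p = 0.837). At 150 µg/d, 0.293% of all genes passed and no member did (limma, also none at an unadjusted p under 0.05). Nuclear members had a median of -0.01, with 44 of 77 below 0, and mitochondrial genes a median of -0.07, with 9 of 13 below 0. Neither direction held when single libraries were left out. Without library 17, 58 of 77 nuclear genes (median 0.06) and 9 of 13 mitochondrial genes (0.08) were above 0, without library 16 17 of 77 nuclear genes were (-0.06), and without library 2 11 of 13 mitochondrial genes were (0.11). With this dose Atp5b stood at 528.7, 634.7, 427.2 and 602.4 RPKM, against 524.6, 503.8 and 527.7 RPKM without, so that the infused libraries spread to both sides. The 2 comparisons share the uninfused WT libraries.

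In Gcg-/- liver the fitted differences lay mostly above 0 at both doses. At 30 µg/d no member passed, as against 0.0863% of all genes (limma; 8 members had an unadjusted p under 0.05). Of the nuclear genes 72 of 77 were above 0, with a median of 0.13, and of the mitochondrial genes 11 of 13, with a median of 0.19. Over all genes the median was -0.02. Without library 5 the nuclear count was 57 of 77, with a median of 0.07. The mitochondrial median was 0.08 without library 6, 12 or 13 and 0.31 without library 11. Beside these, Kupffer markers were below 0 in 10 of 10 and endothelial markers in 8 of 10 genes. Stellate and fibroblast markers were above 0 in 7 of 10. The periportal list had 5 of 8 above 0 with a median of 0.54, and the pericentral list had 5 of 8 above 0. No gene was called in any of these lists, and their part was not tested. In 9 of 77 nuclear genes every infused library lay above every uninfused one, against 3.18% of all genes. Ndufb7 then stood at 79.4, 65.7, 78.7 and 67.5 RPKM, each above the 3 uninfused Gcg-/- libraries, but did not pass (0.37, SE 0.10, limma adjusted p = 0.241). Ndufc2 was at 72.7, 80.8, 97.2 and 75.0 RPKM (limma adjusted p = 0.267). ND5, a core subunit of complex I, averaged 2168 ± 153 RPKM without infusion (SD, n = 3) and 2934 ± 420 RPKM at 30 µg/d (SD, n = 4; limma adjusted p = 0.429).

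At 150 µg/d 1 member was higher in Gcg-/- liver than without infusion and none was lower, where 2.72% of all genes passed, a larger share than 1 of 90. It was again Ndufb7, at 71.2, 81.8, 77.6 and 77.3 RPKM, all above the 59.5, 50.5 and 58.7 RPKM without infusion. Ndufb7 rose by 0.45 in log2 (SE 0.10, limma adjusted p = 0.0297). The call was lost without library 4, 5, 20, 21 or 22 (adjusted p 0.0686 to 0.118) and with only these 2 groups fitted (limma adjusted p = 0.156). The lower value in uninfused Gcg-/- against WT and the higher value here use the same 3 uninfused libraries, so they are not independent of each other.

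The next 3 nuclear genes were near the threshold at this dose. Cox7a2, a complex IV subunit, stood at 129.9, 189.2, 170.2 and 176.7 RPKM against 120.3, 119.6 and 126.8 RPKM (limma adjusted p = 0.0625). Ndufa2, a complex I accessory subunit, was at 70.0, 87.2, 70.4 and 91.4 RPKM against 58.7, 58.0 and 60.5 RPKM (limma adjusted p = 0.0692). Ndufc2 was at 77.6, 85.6, 75.8 and 87.2 RPKM (limma adjusted p = 0.0804). In each of these the infused libraries lay above the uninfused ones. Such separation was found in 11 of 77 nuclear genes and 1 of 13 mitochondrial genes (ND5), against 4.55% of all genes.

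Over all 77 nuclear genes 70 were above 0 at 150 µg/d, with a median of 0.11, where 41.5% of all genes were above 0 and the median was -0.04. Complex IV had 12 of 12 above 0, complex V 16 of 17, complex I 32 of 36, complex III 7 of 8 and complex II 3 of 4. Without library 5 the nuclear count was 52 of 77, with a median of 0.05, and without library 6 the median was 0.17. The mitochondrial genes showed no common direction: 8 of 13 were above 0 with a median of 0.03, and without library 6 or library 20 the median was -0.03 or -0.05. After quantile normalization the mitochondrial median was -0.01 at 150 µg/d and 0.01 at 30 µg/d. The endothelial markers moved the other way, with 3 of 10 called lower and 10 of 10 below 0 at 150 µg/d. Kupffer markers were below 0 in 10 of 10 genes (median -0.31, none called). Stellate and fibroblast markers were above 0 in 6 of 10 (median 0.14, none called). Of 8 periportal hepatocyte markers 5 were above 0 and 3 below, and 4 were called higher (Gls2, Sds, Pck1 and Ass1). Of 8 pericentral markers 4 were above 0 and 4 below, with 1 called higher. The part of these lists in the result was not tested.

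**Figure D5:**
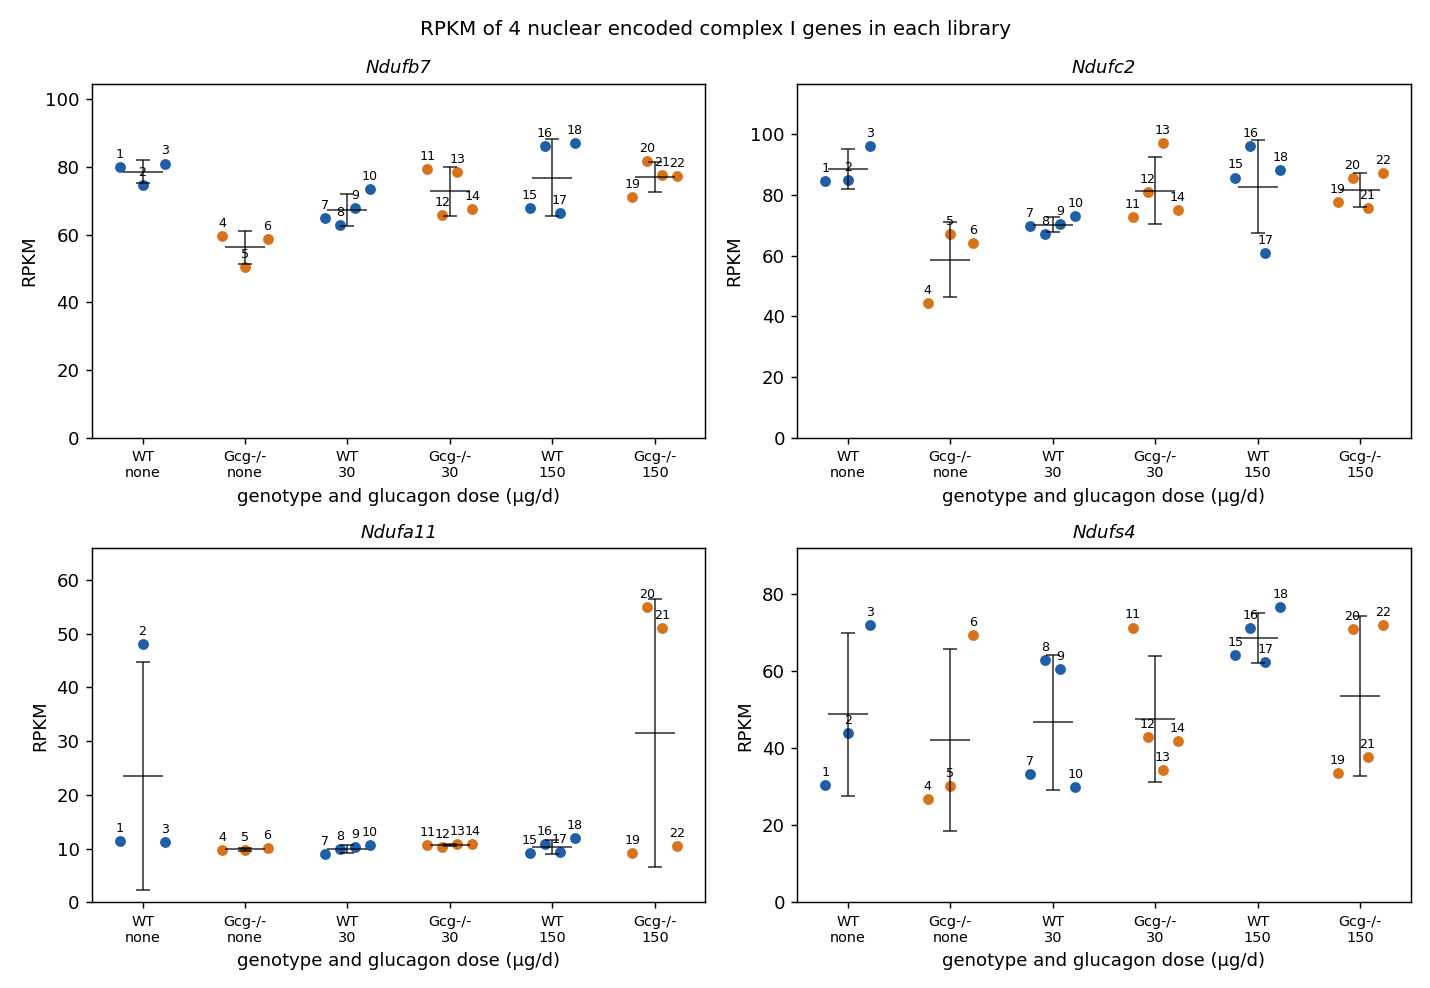
RPKM (y axis) of 4 nuclear genes of complex I in each library, by genotype and glucagon dose (x axis); points carry the library number and bars show the group mean and SD. Ndufb7 and Ndufc2 are lowest in uninfused Gcg-/-, while Ndufa11 and Ndufs4 fall into separate levels that cut across the groups.

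The group means of single genes are another view of the same genes and libraries, and not separate evidence. Uninfused Gcg-/- had the lowest of the 6 group means in 61 of 77 nuclear genes and in 6 of 13 mitochondrial genes, compared with 18.6% of all genes. The Gcg-/- group at 150 µg/d had the lowest mean in 6 other mitochondrial genes but in 4 of 77 nuclear genes. Without library 5 the uninfused Gcg-/- group was lowest in 34 of 77 nuclear genes, and without library 4 or library 6 in 56 or 64.

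Between the infused genotypes no member was called. At 30 µg/d no member passed between Gcg-/- and WT (0.328% of all genes did; limma, 3 members with an unadjusted p under 0.05), and the nuclear median was 0.05. Of the nuclear genes 59 of 77 were above 0, 31 of 36 in complex I, where 49.9% of all genes were, and 10 of 13 mitochondrial genes were below 0. Leaving out single libraries gave 47 (library 10) to 67 (library 12) nuclear genes above 0. The mitochondrial genes turned to 8 of 13 above 0 without library 8 and to 10 of 13 without library 11. At 150 µg/d none passed either (0.0259% of all genes; 1 member with an unadjusted p under 0.05), and the nuclear median was -0.01, with 33 of 77 above 0 (11 without library 17, 59 without library 16). All 13 mitochondrial genes were below 0 in Gcg-/- against WT at 150 µg/d, with a median of -0.14, but each had an adjusted p of 1 by limma. Without library 15 or library 16, 7 of 13 were below 0, with medians of -0.02 and -0.07, and without library 17 the median was -0.30. Between doses no member passed in WT (0.00863% of all genes) or in Gcg-/- (0.544% of all genes), with 2 and 3 members at an unadjusted p under 0.05. At 150 against 30 µg/d in WT 58 of 77 nuclear genes were above 0 (43 without library 16), and in Gcg-/- 43 of 77 (21 without library 20). Mitochondrial genes were below 0 in 9 of 13 in WT (3 of 13 without library 17) and in 12 of 13 in Gcg-/- (median -0.15, and -0.05 without library 13; 7 of 13 with a median of -0.01 after quantile normalization).

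The dose effect was also compared between genotypes as an interaction, the change in Gcg-/- minus that in WT. No member passed at 30 µg/d (0.00863% of all genes; 8 members at an unadjusted p under 0.05) or at 150 µg/d (0% of all genes; 5 members), by limma. At 30 µg/d 73 of 77 nuclear differences were above 0, among them all 36 of complex I, with a median of 0.19 against -0.02 for all genes. The smallest adjusted p was that of Ndufb7 and Ndufc2 (0.236 for both, limma). Without library 5 the count was 67 of 77 and the median 0.13. At 150 µg/d 67 of 77 were above 0, with a median of 0.14, and 53 or 52 of 77 without library 5 or library 17 (0.08 and 0.07). The mitochondrial genes had 11 of 13 above 0 at both doses, with medians of 0.18 and 0.14, but this rested on single libraries. Without library 2 it was 6 of 13 at 30 µg/d (median -0.03) and 7 of 13 at 150 µg/d (0.02), and at 150 µg/d it was also 7 of 13 without library 6, 17 or 20. Both interactions use the 6 uninfused libraries.

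A pair of complex I genes stood at separate levels that did not follow the groups. Ndufa11, an accessory subunit near the membrane arm (gene at chr17:56717762-56724248), lay between 8.94 and 11.9 RPKM in 19 libraries. It stood at 48.1, 54.9 and 51.1 RPKM in libraries 2, 20 and 21. One of these is an uninfused WT library and the others are Gcg-/- at 150 µg/d, each with group mates at the low level. Its fitted difference at 150 µg/d in Gcg-/- (1.15, SE 0.50, limma adjusted p = 0.225) therefore rests on libraries 20 and 21. Ndufs4, a subunit of the NADH-oxidising arm (gene at chr13:114287795-114388094), was at 26.9 to 43.9 RPKM in 11 libraries and at 60.5 to 76.6 RPKM in the other 11, with no value between. The high level was seen in 1 of 3 uninfused WT, 1 of 3 uninfused Gcg-/-, 2 of 4 WT at 30, 1 of 4 Gcg-/- at 30, 4 of 4 WT at 150 and 2 of 4 Gcg-/- at 150 µg/d libraries. Both genes were singled out after their values were seen, and the sources used here do not say how reads from overlapping or copied sequence were counted.

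Few genes that serve the same machinery were called. Of 42 tested assembly factors none passed in Gcg-/- against WT without infusion (1.54% of all genes did), with 31 of 42 below 0 (47.9% of all genes). At 30 µg/d in Gcg-/- 36 of 42 were above 0, with none called, and in the interaction at 30 µg/d 38 of 42 were. At 150 µg/d in Gcg-/-, where 2.72% of all genes passed, 1 of 42 was lower: Sdhaf1, which helps to insert iron-sulfur clusters into complex II (9.50 ± 0.62 RPKM, n = 3, to 6.56 ± 1.39, n = 4, SD; limma adjusted p = 0.0366). Of 41 genes for mitochondrial DNA and RNA upkeep, 1 was lower in that comparison, again no more than the share of all genes: Mtpap, the mitochondrial poly(A) polymerase (6.70 ± 0.95 to 4.79 ± 0.32 RPKM, SD, n = 3 and 4; limma adjusted p = 0.0396). None of the 11 tested nuclear regulators passed in the 5 comparisons above. Tfam, which packages and transcribes mitochondrial DNA, averaged 9.23 ± 0.27 RPKM in uninfused WT and 9.45 ± 1.82 RPKM in uninfused Gcg-/- (SD, n = 3 each). Polrmt, the mitochondrial RNA polymerase, averaged 5.56 ± 0.35 and 4.91 ± 0.21 RPKM. Ppargc1a, a coactivator of mitochondrial gene expression, averaged 1.21 ± 0.64 RPKM in uninfused Gcg-/- (SD, n = 3) and 2.98 ± 1.45 RPKM at 150 µg/d (SD, n = 4), a difference that did not pass (limma adjusted p = 0.127).

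Of 13 related genes outside the name rule, 2 passed in Gcg-/- against WT without infusion, where 1.54% of all genes did. Etfdh, which passes electrons from fatty acid oxidation to ubiquinone, was lower, at 83.0, 78.1 and 88.0 RPKM against 116.0, 114.0 and 109.3 RPKM (log2 difference -0.44, SE 0.11, limma adjusted p = 0.0401). Ucp2, a carrier of the inner membrane, was higher, at 34.4, 31.0 and 26.8 RPKM against 14.8, 11.5 and 12.8 RPKM (1.17, SE 0.29, limma adjusted p = 0.0452). Cyc1, the haem subunit of complex III, averaged 102.8 ± 4.37 and 91.0 ± 10.4 RPKM (limma adjusted p = 0.496), and Ndufab1, the acyl carrier subunit of complex I, 47.6 ± 1.37 and 49.5 ± 6.26 RPKM (limma adjusted p = 0.852; SD, n = 3 each). Of 14 citric acid cycle genes 1 passed at 150 µg/d in Gcg-/- (2.72% of all genes). Fh1 (fumarate hydratase) rose there, from 53.9, 54.0 and 61.6 RPKM to 100.02, 222.0, 228.1 and 250.6 RPKM (1.73, SE 0.28, limma adjusted p = 0.00373). In WT at the same dose Fh1 stood at 249.8, 252.1, 109.2 and 223.6 RPKM against 99.5, 93.1 and 90.7 RPKM, which did not pass (limma adjusted p = 0.111). Library 17, low for both origins of subunits, was also the low library for Fh1 in its group.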

How the data were processed

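Liver polyA RNA of 22 libraries was sequenced after poly(A) selection and strand-specific library preparation, per the labels' protocols. CASAVA 1.8.2, FastQC and GRCm38 are named in the submitters' processing notes. For the aligner, counter, annotation and use of strand: not given in the sources used here. The authors deposited 1 table of RPKM for 24475 genes, with no replicates pooled.

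Depth was estimated from steps between low RPKM values of 5728 genes with 1 transcript. Of their low values above 0, 63.3 to 69.5% in a library came out whole within 0.1 of a read. By chance 20% would, and the share was too low for a count test. Testing took the 11590 genes whose mean RPKM reached 0.5, with limma 3.58.1 (R 4.3.3) on log2(RPKM + 1), which understates changes of low genes: 6 groups in one fit, 11 contrasts, variance trended on level, and p adjusted by Benjamini-Hochberg over all genes tested. Genes with adjusted p under 0.05 were called. The fit was tested on simulated data. Sums, ratios and counts of directions carry no test. Because RPKM is relative, other scalings were tried, along with other pseudocounts, filters, fits and left-out libraries.

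Members and gene lists were chosen with earlier results of these data known. Named genes are all mitochondrial members, called members, the highest and lowest of each complex, the 4 smallest p per main comparison and tissue isoforms; Ndufs4, Atp5d, Ndufs5 and the listed pathway and marker genes that passed were added after their values were seen.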

Additional observations from a re-analysis of the deposited data

Results flagged for a closer look

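In groups of 4 libraries, 15 of 372 gene and group combinations had 1 library far from the other 3, about the 1 in 20 that chance gives; 6 of them were among the genes named. ND1 stood at 5325.5 RPKM in library 20 (Gcg-/- at 150 µg/d), with the other 3 between 3832 and 4071 RPKM. ND6 stood at 261.2 RPKM in library 12 (Gcg-/- at 30 µg/d), against 126.2 to 146.9 RPKM. Uqcrq, a subunit of complex III, was at 417.4 RPKM in library 11 (Gcg-/- at 30 µg/d), against 387.9 to 391.7 RPKM. Cox8a, of complex IV, was at 205.3 RPKM in library 7 (WT at 30 µg/d), against 193.6 to 194.4 RPKM. Cox7a2l, a supercomplex factor, was at 73.1 RPKM in library 16 (WT at 150 µg/d), against 68.5 to 69.3 RPKM. Ndufa4l2 was at 2.12 RPKM in library 19 (Gcg-/- at 150 µg/d), against 0.56 to 0.771 RPKM. The gaps in Uqcrq, Cox8a and Cox7a2l are small against their level, and the other 3 libraries lay close together.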

How the results depend on the processing

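For Gcg-/- against WT without infusion, 1 member was called. The count was 2 with median-of-ratios scaling, 5 with array weights, and 0 when libraries were rescaled to one sum without the mitochondrial genes, when these groups alone were fitted or when libraries 4 and 13 were left out; it was 0 to 2 over single left-out libraries. For 150 µg/d against none in Gcg-/-, 1 was called. The count was 5 with median-of-ratios scaling, 4 with quantile normalization, 4 with array weights, 0 in the groups alone, 0 without libraries 4 and 13, and 0 to 3 over single left-out libraries. For 150 against 30 µg/d in Gcg-/- it was 0, but 1 with array weights and 0 to 1 over left-out libraries. The log2 ratio of origins was 5.40, 5.32, 5.47, 5.35, 5.35 and 5.21 (uninfused WT and Gcg-/-, then 30 and 150 µg/d in the same order) as a difference of mean logs, and 2.64 in Gcg-/- at 150 µg/d without ND6, ATP8 and ND4L. The count of nuclear genes lowest in uninfused Gcg-/- was 34 in place of 61 without library 5, or without 5 and 17, settings chosen after seeing the data. The cause was not tested. Ndufb7, the member called in these 2 comparisons against uninfused libraries, kept its sign in every setting run. Its groups did not overlap, so leaving out a library could not turn the sign, and this adds no support. The call itself was lost in several settings. The signs of the other called genes were not followed across settings. No paired analysis was possible because the running numbers are unique. Groups of 3 and 4 libraries limit every comparison, and a miss does not show equal levels.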

Other observations

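Cycs, the gene of somatic cytochrome c, which carries electrons from complex III to complex IV, averaged 85.2 ± 40.9 RPKM in Gcg-/- at 30 µg/d (SD, n = 4) and 50.9 ± 0.68 RPKM in uninfused WT (SD, n = 3). The high mean came from library 11, in which the mitochondrial sum was 59820 RPKM, the lowest but one. Ndufs5, a complex I subunit, had 3.05 RPKM in library 14 and 2.35 RPKM in library 15, and in the other 20 libraries values above 0 but under 1e-06 RPKM, too small to stand for a read. Its low mean kept it out of the test. Both genes were chosen after their values were seen.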
